A study of Mus musculus with 29 samples.

Results

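The 10 genes described here, Fn1, Tnc, Postn, Spp1, Thbs1, Thbs2, Sparc, Mgp, Fbln7 and Emilin2, encode matricellular and adhesive glycoproteins. They were selected by gene symbol, and each had 1 of the 55401 gene rows (55291 distinct symbols) in the deposited tables of read counts. Counts came from peribiliary mesenchymal cells of the mouse common bile duct, the fibroblasts that surround the duct. All 29 animals carried a tamoxifen-inducible Cre and the Cre reporter Rosa26:lox-STOP-lox-tdTomato. The labels give neither age, sex, strain nor the timing of tamoxifen.

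Gli1:CreERT2, which acts in cells that express the Hedgehog target Gli1, marked the cells of 3 uninjured ducts and of 3 ducts whose common bile duct had been ligated, sampled on day 4. Pdgfra:CreERT2, which acts in cells that express the fibroblast receptor Pdgfra, marked 5 wild type libraries and 6 mutant groups. SmoFF (n = 4), Gli2FF (n = 2), Gli3FF (n = 2), Gli2FFGli3FF (n = 4) and Ctnnb1FF (n = 3) carry alleles read here, by convention, as loxP-flanked and removable by Cre. SmoM2 (n = 3) carries a constitutively active Smo. Smo transduces the Hedgehog signal, Gli2 and Gli3 are its transcription factors, and Ctnnb1 encodes beta-catenin. About 1000 cells per animal were sorted, so each library stands for 1 animal's duct. No sham-operated group is named. In bulk libraries, fewer cells of a type and less RNA per cell cannot be told apart.

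Total counts were 15021796 to 38301189 per library. The ribosomal RNA locus CT010467.1 took 2.37 to 3.87% of counts in the Gli1 libraries, 13.41 to 29.37% in wild type, 8.56 to 13.5% in Gli2FF, 24.52 to 39.12% in Gli3FF, 28.02 to 34.39% in Ctnnb1FF and 38.35 to 50.03% in Gli2FFGli3FF. Ctnnb1FF libraries held 15892 to 17726 detected genes, Gli2FFGli3FF 17508 to 20055, Gli3FF 17544 to 22143 and Gli2FF 25279 to 28028, against 21127 to 24483 in wild type. Smo was at 6.81 to 9.05 CPM (counts scaled to library size) in SmoFF against 22.6 to 36.3 in wild type, and Gli3 was at 12.3 to 14.4 in Gli3FF against 30.8 to 44.9. In Gli2FFGli3FF, Gli2 was at 1.55 to 6.39 CPM against 12.75 to 20.9 in wild type. Gli2 in Gli2FF, at 6.91 to 12.80 CPM, overlapped wild type, and Ctnnb1 in Ctnnb1FF was at 37.98 to 47.9 against 53.2 to 64.2. Low levels were not confined to the targeted groups. Ctnnb1 was at 37.7 to 45.6 CPM in Gli3FF, and Gli3 was at 8.36 to 16.2 CPM in Ctnnb1FF. Which exons are flanked is not stated, so transcripts of a cut allele can still be counted. Hhip, a Hedgehog target, was at 182 to 284 CPM in SmoM2 and at 1.27 to 14.4 in wild type. The targets Ptch1 and Gli1 were at 20.6 to 37.0 and 7.96 to 27.0 CPM in wild type. In SmoFF, Hhip (0.24 to 2.65), Ptch1 (24.6 to 34.0) and Gli1 (4.29 to 18.9) overlapped wild type. Ptch1 lay above wild type in SmoM2 (248 to 385), Gli3FF (83.3 and 126) and Ctnnb1FF (58.1 to 117). Gli1 lay below it in Gli2FFGli3FF (0.27 to 2.51) and Ctnnb1FF (0.95 to 4.30). The description of wild type replicate 5 names SmoFF, unlike its title and genotype. It was kept as wild type, and its Smo level was 28.7 CPM. The summed level of 7 fibroblast markers (Pdgfra, Pdgfrb, Col1a1, Col1a2, Col3a1, Dcn and Lum) was 18776 to 48790 CPM in the Pdgfra libraries and 34218 to 72601 in the Gli1 libraries.

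Matricellular proteins are secreted into the extracellular matrix and act on how cells attach, move and respond to growth factors rather than serving mainly as structural fibres. They bind integrins, CD36, CD44, CD47 and syndecans on the cell surface, and they bind collagens and growth factors outside it. Fibronectin (Fn1) assembles into fibrils to which cells attach through integrins, while tenascin-C (Tnc), periostin (Postn), osteopontin (Spp1) and the thrombospondins (Thbs1, Thbs2) are typically induced during tissue repair. SPARC binds collagen, matrix Gla protein (Mgp) inhibits calcification and binds bone morphogenetic proteins, fibulin 7 (Fbln7) is a cell adhesion protein of the fibulin family, and EMILIN-2 (Emilin2) is an elastin-associated glycoprotein. In injured bile ducts the periductal fibroblasts are a main source of new matrix.

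The bases upstream of 4 genes are shown as examples with different patterns. Fbln7 and Postn were both lower in Gli2FF and in Gli2FFGli3FF, Emilin2 was lower in 4 of 6 mutant groups, and Tnc had its lowest mean levels in wild type and SmoFF. Each is the window of 250 bases before the RefSeq transcript start (GRCm38.p6, the assembly of mm10), 5′ to 3′ on the gene's strand. Capitals mark letters found in a search on both strands. The search used GACCACCCA for the GLI factors of the Hedgehog pathway. It used CTTTGAT for the TCF/LEF factors that act with beta-catenin, and TATAAA for the TATA box that positions the start. It also used GGAATG for the TEAD factors, and TGANTCA for AP-1. The Fbln7 window is chr2:128863682-128863931 on the plus strand, that of Postn chr3:54360857-54361106 on the plus strand, that of Emilin2 chr17:71311557-71311806 on the minus strand and that of Tnc chr4:64047016-64047265 on the minus strand.
Fbln7: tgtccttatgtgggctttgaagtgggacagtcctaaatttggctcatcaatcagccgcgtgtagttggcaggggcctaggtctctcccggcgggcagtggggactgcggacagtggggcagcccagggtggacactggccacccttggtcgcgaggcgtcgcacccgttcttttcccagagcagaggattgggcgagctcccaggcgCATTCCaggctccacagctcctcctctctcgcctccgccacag
Postn: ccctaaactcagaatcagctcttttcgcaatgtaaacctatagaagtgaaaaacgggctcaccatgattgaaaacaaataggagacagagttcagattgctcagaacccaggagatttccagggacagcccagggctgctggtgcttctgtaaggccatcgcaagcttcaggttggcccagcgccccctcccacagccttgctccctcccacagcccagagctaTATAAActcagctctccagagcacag
Emilin2: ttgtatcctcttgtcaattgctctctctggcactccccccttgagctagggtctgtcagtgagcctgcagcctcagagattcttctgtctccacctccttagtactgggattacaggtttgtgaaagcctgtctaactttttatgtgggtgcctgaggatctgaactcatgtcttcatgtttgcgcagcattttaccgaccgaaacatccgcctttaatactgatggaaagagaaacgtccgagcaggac
Tnc: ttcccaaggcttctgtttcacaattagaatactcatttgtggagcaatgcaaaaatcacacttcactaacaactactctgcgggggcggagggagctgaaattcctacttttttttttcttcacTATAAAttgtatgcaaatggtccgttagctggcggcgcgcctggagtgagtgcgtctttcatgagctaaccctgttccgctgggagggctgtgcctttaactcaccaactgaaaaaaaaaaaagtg
The Postn window held TATAAA beginning 26 bases before the start, and the Tnc window held it 126 bases before. The Fbln7 window held CATTCC, the TEAD letters on the opposite strand, 43 bases before the start. None of the 5 letter strings was present in the Emilin2 window. The RefSeq table gave windows for 7 of the 10 genes, and the GLI, TCF/LEF and AP-1 letters were in none of those 7. Over 32851 promoter windows of the same length, 0.2253% held the GLI letters, 3.205% the TCF/LEF letters, 12.37% TATAAA, 12.64% GGAATG and 6.749% the AP-1 letters. A match describes the sequence only, and an absent match says only that these letters are not in this window.

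In the mm10 annotation used here (GENCODE M21) all 10 are protein-coding genes. Fn1 (ENSMUSG00000026193.15) lies on chromosome 1 from 71585520 to 71653200 and Tnc (ENSMUSG00000028364.15) on chromosome 4 from 63959785 to 64047015. Postn (ENSMUSG00000027750.16) lies on chromosome 3 from 54361109 to 54391037 and Spp1 (ENSMUSG00000029304.14) on chromosome 5 from 104435118 to 104441050. Thbs1 (ENSMUSG00000040152.8) and Fbln7 (ENSMUSG00000027386.9) share chromosome 2, at 118111876 to 118127133 and 128862981 to 128897034. Thbs2 (ENSMUSG00000023885.9) and Emilin2 (ENSMUSG00000024053.11) share chromosome 17, at 14665500 to 14694235 and 71252172 to 71311978. Sparc (ENSMUSG00000018593.13) lies on chromosome 11 from 55394500 to 55423183 and Mgp (ENSMUSG00000030218.2) on chromosome 6 from 136872435 to 136875823. The RefSeq start of Fbln7 lies inside the annotated gene, at 128863932, and those of Sparc and Emilin2 also lie inside their genes.

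Levels were compared between genes per kilobase of exon. In wild type, Sparc led at 1156 ± 114 CPM per kilobase (SD, n = 5), followed by Mgp at 338 ± 72.8 and Fn1 at 160 ± 39.1. Postn (52.8 ± 19.5), Emilin2 (28.99 ± 5.39) and Fbln7 (21.0 ± 5.73) were in the middle. Spp1 (8.86 ± 8.49), Thbs2 (7.86 ± 1.44), Thbs1 (6.39 ± 1.82) and Tnc (0.39 ± 0.27) were lowest. The ranges of Sparc, Mgp and Fn1 did not touch those of their neighbours. From Postn down to Thbs1, the range of each gene overlapped that of the next. The wide range of Spp1 also overlapped that of Tnc. In uninjured Gli1 libraries Sparc (850 ± 129, n = 3) and Mgp (736 ± 151) overlapped at the top, and Fbln7 (3.05 ± 2.01) and Tnc (3.06 ± 2.60) were at the bottom.

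**Figure D1:**
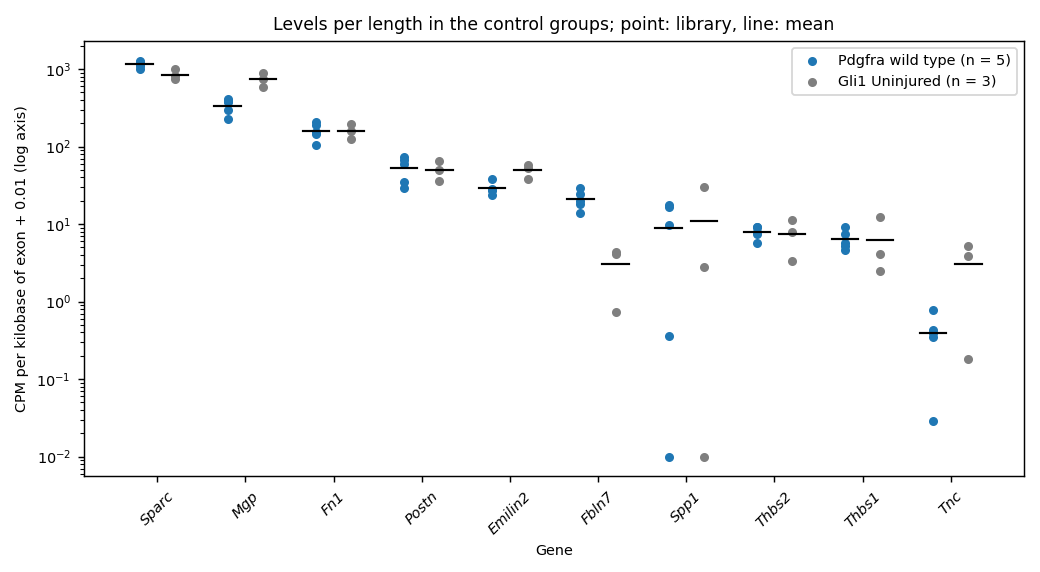
Level of each gene per kilobase of exon (CPM per kilobase + 0.01, log axis) in the uninjured Gli1 and the wild type Pdgfra libraries, with 1 point per library and a line at the mean. Sparc, Mgp and Fn1 are the 3 highest genes in both groups.

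Values below are CPM scaled to TMM library sizes, separately for the 6 Gli1 and the 23 Pdgfra libraries. Changes are log2 fold changes ± SE from edgeR's quasi-likelihood test, and a gene is called at a Benjamini-Hochberg adjusted p under 0.05 over all genes tested. The verbs rose and fell are used for called genes only.

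**Figure D2:**
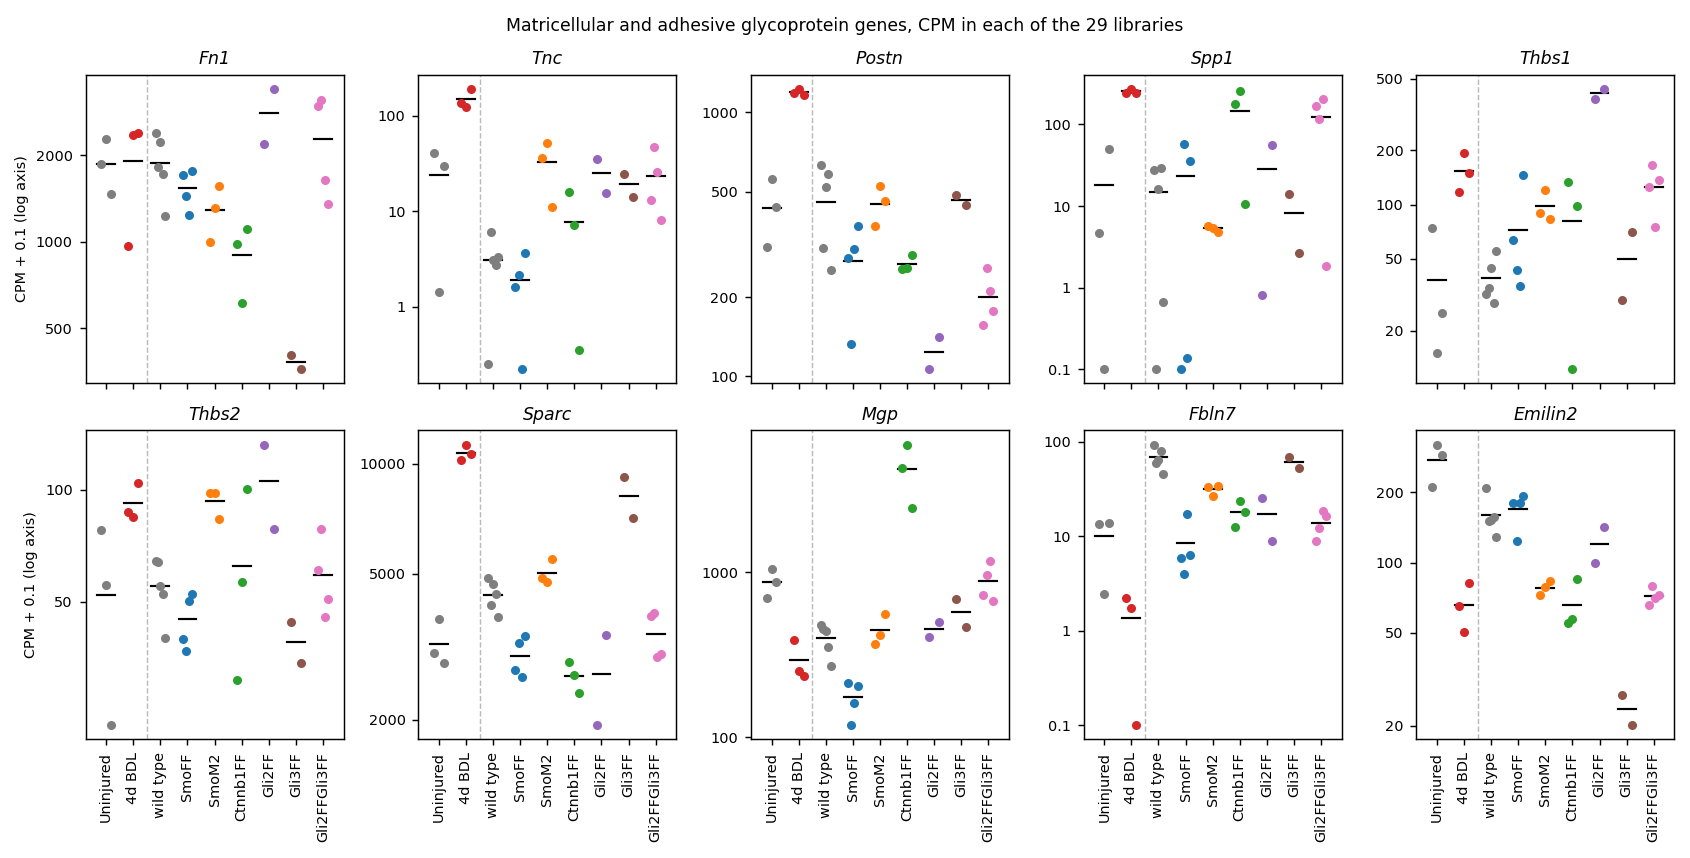
CPM + 0.1 (log axis) of the 10 genes in each of the 29 libraries by group, with the Gli1 groups left of the dashed line and the Pdgfra groups right of it on a separate scale. Mgp in the 3 Ctnnb1FF libraries (2461 to 5954 CPM) and Fn1 in the 2 Gli3FF libraries (360 and 405) stand apart from the wild type libraries.

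Ligation was compared with no injury to ask how these genes differ in Gli1-lineage cells on day 4. Sparc and Postn rose and Mgp and Emilin2 fell, while Fn1 differed little. These 4 of 10 stand beside 13.6% of all 17150 genes called in this comparison. The median log2 change was 1.14 over the 10 genes and 0.07 over all genes tested.

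Sparc, the collagen-binding glycoprotein, was at 3043, 3772 and 2846 CPM in the uninjured libraries and at 10244, 11282 and 10637 after ligation. All ligated libraries lay far above all uninjured ones, and Sparc rose by 1.74 ± 0.16 (adjusted p = 0.00256). Periostin, which links collagen and integrins, was at 310, 562 and 437 CPM before and at 1188, 1232 and 1164 after ligation. Postn rose by 1.45 ± 0.23 (adjusted p = 0.0143), with ligated libraries close together and well above the uninjured ones. The Postn call was lost on leaving out any ligated library (adjusted p = 0.0505 to 0.0801). With counts corrected for transcript length and GC content its change was 1.00 (adjusted p = 0.225).

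Emilin2 fell the most of the called genes. It was at 211, 321 and 290 CPM in uninjured libraries and at 64.8, 50.5 and 82.1 after ligation, a change of −2.06 ± 0.26 (adjusted p = 0.00649). Mgp, the calcification inhibitor, was at 695, 1054 and 871 CPM in uninjured and at 389, 254 and 237 in ligated libraries, and fell by 1.58 ± 0.26 (adjusted p = 0.0157). Neither gene's groups overlapped. The Mgp call was lost without ligated replicate 2 (adjusted p = 0.0952) or 3 (adjusted p = 0.0919).

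Another 5 genes had groups that did not overlap but did not pass the test. Some were called in other settings. Limma voom called Tnc (adjusted p = 0.0322), Spp1 (adjusted p = 0.0239) and Thbs1 (adjusted p = 0.0173), and DESeq2 called Thbs1 (adjusted p = 0.00258). Thbs1 was also called without uninjured replicate 1 (adjusted p = 0.0164), Tnc without replicate 2 (adjusted p = 0.0228) and Spp1 without replicate 3 (adjusted p = 0.0340). Tnc was at 40.5, 1.32 and 29.6 CPM in uninjured and at 136, 123 and 193 in ligated libraries (adjusted p = 0.147). Osteopontin showed the same layout, with Spp1 at 4.58, 0 and 49.4 CPM before and 245, 274 and 243 after ligation (adjusted p = 0.189). The Spp1 count of 0 allows up to 0.132 CPM in that library, and the uninjured libraries thus span a wide range while the ligated ones nearly coincide. Thbs1, an activator of latent TGF-beta, was at 73.8, 14.95 and 25.0 CPM against 118, 194 and 149 (adjusted p = 0.0752). Its paralog Thbs2 was at 77.7, 55.3 and 23.1 against 87.2, 84.2 and 104 (adjusted p = 0.280). Low in both groups, Fbln7 was at 13.4, 2.37 and 13.8 CPM before and 2.13, 1.66 and 0 after ligation, where 0 counts allow up to 0.113 CPM (adjusted p = 0.295).

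Fibronectin was among the highest of these genes in both groups and did not part them. Fn1 was at 1869, 2279 and 1460 CPM in uninjured and at 970, 2342 and 2393 in ligated libraries. Ligated replicate 1 lay below all uninjured libraries and the other two above them (log2 change 0.02 ± 0.37, adjusted p = 0.980).

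Markers of other cell types moved in the same comparison. The summed level of 10 smooth muscle and pericyte markers was 63.7 to 139 CPM in uninjured and 4800 to 5765 in ligated libraries, with 5 of 10 higher and 0 lower. Acta2, the smooth muscle actin that activated fibroblasts also express, was at 40.1 to 74.3 against 3527 to 4211 CPM. The summed level of 8 mesothelial markers was 320 to 1015 CPM in uninjured and 58.8 to 97.6 in ligated libraries, with 6 of 8 lower. Endothelial markers (8 genes) summed to 125 to 161 against 9.54 to 18.4 CPM, with 1 of 6 tested lower. Schwann and glia markers (8 genes) summed to 52.0 to 55.4 against 12.1 to 13.1 CPM, with 3 of 3 tested lower. Platelet markers (6 genes) summed to 6.71 to 19.4 against 20.7 to 33.5 CPM, with 1 higher and 1 lower. Immune markers (11 genes) overlapped, at 68.7 to 333 against 44.3 to 106 CPM, with 1 higher and 1 lower. The part of these cell types in the changes was not tested. Cholangiocyte markers summed to 1106 CPM in uninjured replicate 3, which also had the highest uninjured Spp1, and to 34.9 to 116 in the ligated libraries.

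The 6 mutant groups were each compared with the same 5 wild type libraries, so these comparisons share their controls. A test of any difference among the 7 Pdgfra groups called 9 of the 10 genes, with 32.8% of 24383 genes called. Spp1 was not called (adjusted p = 0.123), and Thbs2 (adjusted p = 0.0136) was not called without Gli2FF replicate 1 (adjusted p = 0.0594). Fbln7 and Emilin2 each fell in 4 of 6 mutant groups, while Sparc and Mgp were each called in 3 with both directions among them. Fn1, Postn and Thbs1 were called in 2 each, Tnc in 1, and Spp1 and Thbs2 in none.

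Counts of called members by group follow with the share of all 24383 genes called. In SmoFF 2 of 10 were called (1.55% of all genes), in SmoM2 1 (0.205%), in Ctnnb1FF 5 (19.9%) and in Gli2FF 4 (5.84%). In Gli3FF 3 were called (4.45%) and in Gli2FFGli3FF 6 (17.2%). The median log2 change of all genes was −0.61 in Ctnnb1FF and −0.35 in Gli2FFGli3FF, and −0.22 to 0.12 in the other four. Over the 10 genes it was −0.28 and 0.18 in those groups, and −0.43 in SmoFF, 0.07 in SmoM2, 0.38 in Gli2FF and −0.07 in Gli3FF. The all-gene median takes in genes of low counts. Among genes with an average log2 CPM of at least 3, medians by transcript length in Ctnnb1FF were −0.29 to 1.195. Values relative to the all-gene median therefore depend on which genes are counted.

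Markers of other cell types also differed between the mutant groups and wild type. Smooth muscle and pericyte markers (10 genes) summed to 56.4 to 83.2 CPM in wild type, 182 to 436 in Gli2FFGli3FF (5 called higher, 0 lower), 85.4 to 291 in Ctnnb1FF (4 higher, 1 lower), 189 to 217 in Gli3FF (1 higher) and 273 to 293 in SmoM2 (1 higher). Mesothelial markers (8 genes) summed to 143 to 382 CPM in wild type, 39.0 to 50.6 in Gli3FF (4 lower) and 21.8 to 167 in Ctnnb1FF (3 lower). Endothelial markers (7 tested) summed to 56.6 to 87.8 CPM in wild type and 4.93 to 9.32 in Gli3FF, where 2 of them and 2 of 10 cholangiocyte markers were called lower. Their sums also lay below wild type in Gli2FFGli3FF (14.4 to 35.1, 1 called lower) and SmoM2 (38.7 to 43.9, 0 called). In Ctnnb1FF they were 19.3 to 77.3 CPM (1 called lower), and SmoFF and Gli2FF overlapped wild type. Fibroblast markers summed to 42032 to 48790 CPM in Gli3FF (2 of 7 higher) against 26898 to 37404 in wild type. The part of these cell types in the changes below was not tested.

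**Figure D3:**
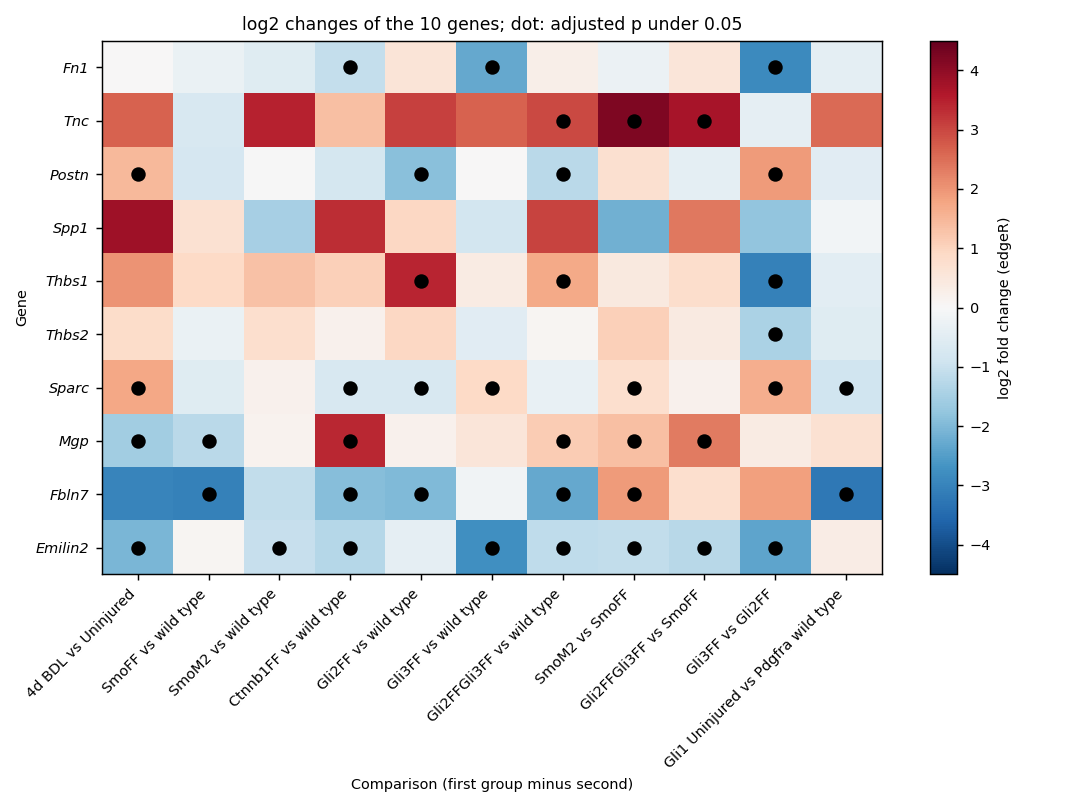
log2 fold change of the 10 genes (vertical axis) in each comparison (horizontal axis, first group minus second) as a colour scale, with a dot where the adjusted p is under 0.05. The strongest colours belong to Mgp in Ctnnb1FF (3.40), Fbln7 in SmoFF (−3.04) and Thbs1 in Gli2FF (3.42) among the called mutant changes against wild type.

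Fbln7, the fibulin family adhesion protein, was at 92.9, 58.7, 63.4, 79.4 and 45.3 CPM in wild type. In SmoFF it was at 5.83, 3.85, 17.2 and 6.22, all far below wild type, and fell by 3.04 ± 0.41 (adjusted p = 0.000251). Wild type replicate 5, whose description names SmoFF, was the lowest wild type library and still above the highest SmoFF library. Ctnnb1FF libraries were at 12.4, 23.4 and 17.8 CPM, a change of −1.93 ± 0.43 (adjusted p = 0.00278), or −1.31 relative to the all-gene median and −1.23 with the length and GC correction (adjusted p = 0.047). In Gli2FFGli3FF, Fbln7 was at 8.71, 12.1, 18.2 and 16.2 CPM and fell by 2.30 ± 0.39 (adjusted p = 0.000279). These 3 groups lay wholly below wild type, and their calls held on leaving out any single library.

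Gli2FF was at 25.5 and 8.87 CPM of Fbln7 (log2 change −1.99 ± 0.51, adjusted p = 0.0216). That call was lost without Gli2FF replicate 2 (adjusted p = 0.255) and with wild type 4 and 5 as the only controls (adjusted p = 0.196). Gli3FF, at 69.4 and 52.4 CPM, overlapped wild type. The SmoM2 libraries, at 33.3, 26.8 and 33.9 CPM, lay below wild type without passing the test (adjusted p = 0.477). Limma voom (adjusted p = 0.00395) and a fit of only these groups (adjusted p = 0.0476) called Fbln7 lower in SmoM2. All SmoM2 libraries lay above all SmoFF libraries, and the direct difference of SmoM2 from SmoFF was 1.92 ± 0.42 (adjusted p = 0.0144). It was lost without SmoM2 replicate 3 (adjusted p = 0.0503) and when only those groups were fitted (adjusted p = 0.0545).

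Emilin2, the elastin-associated glycoprotein, was at 209, 150, 152, 158 and 129 CPM in wild type. Gli3FF libraries were at 27.0 and 20.0 CPM, far below all others. Their mesothelial and endothelial sums also lay below wild type, as did the endothelial sums of Gli2FFGli3FF and SmoM2. Emilin2 fell there by 2.76 ± 0.27 (adjusted p = 1.46e-06). In Gli2FFGli3FF it was at 65.5, 79.6, 70.1 and 72.9 and fell by 1.15 ± 0.19 (adjusted p = 0.000199), lower than wild type in every library but not as low as Gli3FF. With the length and GC correction the Gli2FFGli3FF change was −0.65 (adjusted p = 0.0284). Ctnnb1FF libraries were at 55.0, 57.3 and 84.7 CPM, a change of −1.28 ± 0.21 (adjusted p = 0.000149). Relative to the all-gene median that change was −0.67, and with the length and GC correction it was −0.41 (adjusted p = 0.18).

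SmoM2 libraries were at 72.3, 78.6 and 83.0 CPM of Emilin2, again wholly below wild type (−1.03 ± 0.21, adjusted p = 0.0313). That call did not hold without wild type replicate 1, 2, 3 or 4 or any SmoM2 library (adjusted p = 0.0554 to 0.223). SmoFF overlapped wild type at 180, 123, 181 and 194 CPM, and Gli2FF at 99.8 and 142. SmoM2 against SmoFF differed by −1.12 ± 0.22 (adjusted p = 0.00627) with no overlap, and this held without any single library. Emilin2 was therefore lower in SmoM2 than in SmoFF, the opposite direction to Fbln7.

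Sparc, the most abundant of these transcripts per length, was at 4881, 4104, 4692, 4398 and 3818 CPM in wild type. Gli3FF libraries reached 9222 and 7128 CPM, above every other Pdgfra library, and Sparc rose by 0.90 ± 0.19 (adjusted p = 0.00684). The call was lost without Gli3FF replicate 1 (adjusted p = 0.235) and with wild type 4 and 5 as the only controls (adjusted p = 0.0506). In Ctnnb1FF it was at 2875, 2640 and 2364 (−0.74 ± 0.18, adjusted p = 0.00588). That is −0.13 relative to the all-gene median and 0.03 (adjusted p = 0.949) with the length and GC correction. Leaving out any Ctnnb1FF library (adjusted p = 0.0515 to 0.107) or using wild type 4 and 5 alone (adjusted p = 0.0637) also ended the call.

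Gli2FF libraries were at 1927 and 3401 CPM of Sparc (−0.72 ± 0.21, adjusted p = 0.0441), and this was lost without Gli2FF replicate 1 (adjusted p = 0.671) or wild type replicate 1, 2 or 3 (adjusted p = 0.0642 to 0.0946). RLE scaling (adjusted p = 0.0754), a fit of only these groups (adjusted p = 0.0813), wild type 4 and 5 alone (adjusted p = 0.365) and the length and GC correction (adjusted p = 0.132) ended it as well. SmoFF libraries, at 2733, 3238, 2615 and 3377, lay below wild type and did not pass the test (adjusted p = 0.0936). DESeq2 (adjusted p = 0.0342) and limma voom (adjusted p = 0.0386) called Sparc lower in SmoFF. SmoM2 (4872, 4762 and 5484) and Gli2FFGli3FF (3826, 3911, 2971 and 3026) overlapped wild type. SmoM2 exceeded SmoFF by 0.75 ± 0.18 (adjusted p = 0.0270), a call that each of the 7 omissions of a library ended (adjusted p = 0.05003 to 0.112). In the same SmoFF libraries the summed level of fibroblast markers was 18776 to 20476 CPM against 26898 to 37404 in wild type, with 4 of 7 lower and 0 higher. Mesothelial markers summed to 544 to 1257 CPM in SmoFF and 143 to 382 in wild type, and their part in the SmoFF values was not tested.

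Mgp, which binds bone morphogenetic proteins and keeps soft tissue free of mineral, differed most in Ctnnb1FF. It was at 481, 455, 440, 354 and 272 CPM in wild type and at 4288, 5954 and 2461 in Ctnnb1FF. Mgp rose by 3.40 ± 0.27 (adjusted p = 3.84e-08), and by 3.60 with the length and GC correction. The median change there of genes with transcripts under 1000 bases was 1.195. In Gli2FFGli3FF it was at 730, 959, 1174 and 675 CPM, also wholly above wild type, and rose by 1.14 ± 0.25 (adjusted p = 0.00244). Both calls held without any single library. In these groups 4 and 5 smooth muscle and pericyte markers were called higher. After ligation 5 were higher and Mgp fell. In SmoM2 and in Gli3FF 1 was higher, and Mgp overlapped wild type. The part of these cells in the Mgp values was not tested.

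SmoFF libraries were at 214, 118, 162 and 205 CPM of Mgp, each below each wild type library (−1.198 ± 0.25, adjusted p = 0.0156). This call was lost without wild type replicate 1 (adjusted p = 0.0517), SmoFF replicate 2 (adjusted p = 0.0638) or SmoFF replicate 3 (adjusted p = 0.0691). With wild type 4 and 5 as the only controls its adjusted p was 0.936, and with the length and GC correction the change was −0.74 (adjusted p = 0.237). SmoM2 (368, 420 and 562), Gli2FF (404 and 502) and Gli3FF (691 and 466) overlapped wild type. Set directly against SmoFF, Mgp was higher in SmoM2 by 1.37 ± 0.28 (adjusted p = 0.00982) and in Gli2FFGli3FF by 2.34 ± 0.27 (adjusted p = 4.77e-06), with no overlap in either. The first of these was lost without SmoM2 replicate 3 (adjusted p = 0.0596) and with the length and GC correction (adjusted p = 0.30).

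Mgp has a short transcript (715 bases), and changes moved with transcript length in some groups. The length medians cover genes with an average log2 CPM of at least 3. Genes with transcripts under 1000 bases had a median log2 change of 1.195 in Ctnnb1FF and 0.84 in Gli2FFGli3FF, against −0.29 and −0.01 for those over 4000 bases. In Gli2FF the same medians were −0.49 and 0.44, and in SmoFF −0.26 and 0.12. Genes of the longer transcripts, such as Fn1 and Tnc, lie at the other end of that trend.

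**Figure D4:**
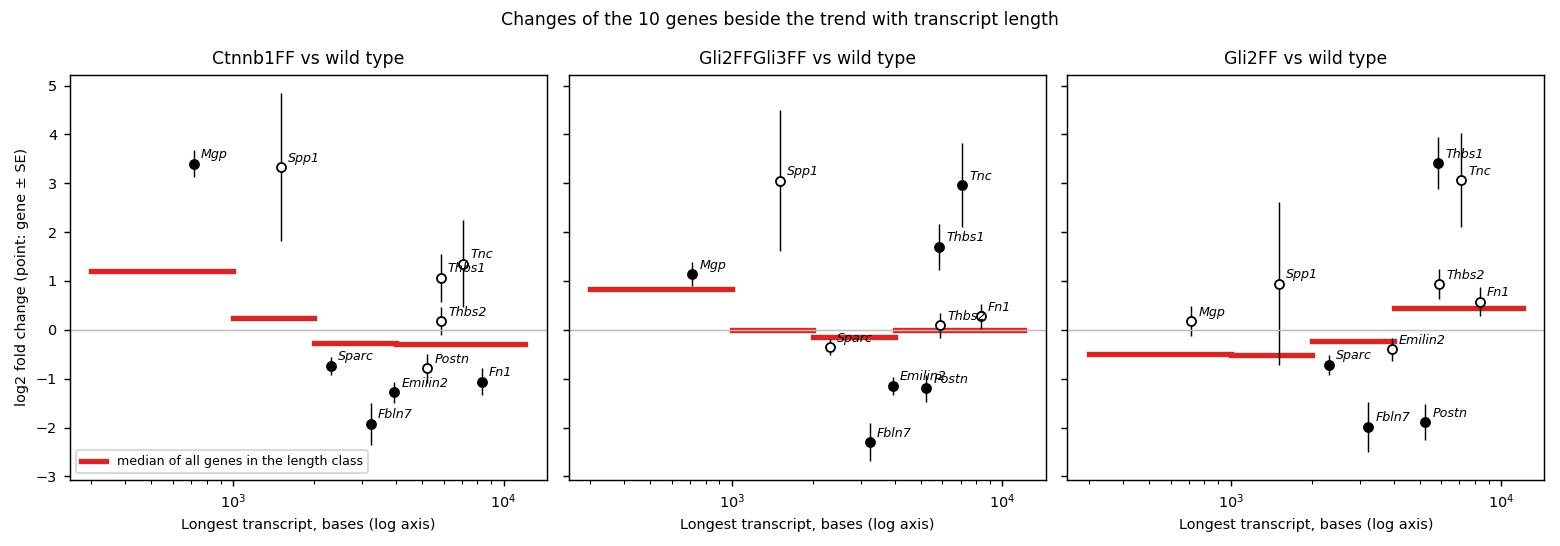
log2 fold change of the 10 genes (points ± SE) against the length of the longest transcript in bases (log axis), in 3 mutant groups against wild type. Filled points are called genes. Red lines mark the median, in each length class, of genes with an average log2 CPM of at least 3. Mgp in Ctnnb1FF (3.40) lies above the median of 1.195 for transcripts under 1000 bases.

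Fn1, the fibril-forming adhesion protein, was at 2390, 1818, 2224, 1714 and 1229 CPM in wild type. In Gli3FF it was at 405 and 360, below every other Pdgfra library, and fell by 2.29 ± 0.36 (adjusted p = 0.000379). The Gli2FF libraries, at 2190 and 3409, and the Gli2FFGli3FF libraries, at 2971, 3116, 1640 and 1347, overlapped wild type. The difference between Gli3FF and Gli2FFGli3FF was not tested. Ctnnb1FF libraries were at 980, 612 and 1105 (−1.06 ± 0.28, adjusted p = 0.0107), or −0.45 relative to the all-gene median and −0.51 with the length and GC correction (adjusted p = 0.255). The call was also lost without Ctnnb1FF replicate 1 (adjusted p = 0.0526) or 2 (adjusted p = 0.136), and with wild type 4 and 5 alone (adjusted p = 0.155). SmoFF (1708, 1443, 1243 and 1762) and SmoM2 (997, 1315 and 1556) overlapped wild type.

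Postn was at 631, 308, 522, 585 and 253 CPM in wild type. Gli2FF libraries, at 106 and 142, lay below all of them, and Postn fell by 1.89 ± 0.37 (adjusted p = 0.00347). That call was lost without Gli2FF replicate 1 (adjusted p = 0.132), and with the length and GC correction the change was −3.46. In Gli2FFGli3FF it was at 156, 258, 211 and 177 and fell by 1.198 ± 0.27 (adjusted p = 0.00406). Its highest library, replicate 2, lay just above wild type replicate 5, so these groups overlapped, and the adjusted p was 0.0666 with the length and GC correction and 0.0514 with wild type 4 and 5 alone. SmoFF (281, 133, 304 and 372), SmoM2 (370, 525 and 460), Ctnnb1FF (255, 258 and 289) and Gli3FF (485 and 445) overlapped wild type. In other settings Postn was called lower in Ctnnb1FF, with DESeq2 (adjusted p = 0.0392), no filter (adjusted p = 0.00984) and wild type 1 to 3 as controls (adjusted p = 0.0488). Leaving out wild type replicate 2 (adjusted p = 0.0410) or 5 (adjusted p = 0.0203) also gave that call. Without a filter Postn was called lower in SmoFF as well (adjusted p = 0.0219).

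Thbs1 was at 31.7, 34.2, 44.6, 28.2 and 55.3 CPM in wild type. It reached 387 and 440 in Gli2FF, more than in any other Pdgfra library, and rose by 3.42 ± 0.54 (adjusted p = 0.000537). In Gli2FFGli3FF it was at 125, 166, 75.2 and 137 and rose by 1.70 ± 0.46 (adjusted p = 0.0143). With wild type 4 and 5 as the only controls the adjusted p was 0.0685 in Gli2FF and 0.152 in Gli2FFGli3FF, and with wild type 1 to 3 it was 0.06 in the latter. SmoM2 libraries, at 90.1, 120 and 83.2, lay above wild type without a call (adjusted p = 0.478). Limma voom (adjusted p = 0.0247) and a fit of only these groups (adjusted p = 0.0192) called Thbs1 higher in SmoM2. SmoFF (63.4, 43.0, 35.4 and 147), Ctnnb1FF (134, 12.1 and 98.1) and Gli3FF (29.5 and 70.1) overlapped wild type.

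Thbs2 varied less. It was at 64.3, 64.0, 54.9, 52.3 and 39.8 CPM in wild type and was called in none of the 6 mutant groups. Gli2FF (132 and 78.5, adjusted p = 0.080) and SmoM2 (98.1, 98.0 and 83.3, adjusted p = 0.472) lay above wild type without overlap. The other groups overlapped it, with Ctnnb1FF spread from 30.6 to 100 CPM (30.6, 56.5 and 100.2). In other settings Thbs2 was called in Gli2FF, with RLE scaling (adjusted p = 0.0482), DESeq2 (adjusted p = 0.0195), limma voom (adjusted p = 0.0165) and no filter (adjusted p = 0.0329). Limma voom also called it in SmoM2 (adjusted p = 0.0322).

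Tnc, a transient matrix protein of repair, was at 0.148, 5.99, 2.99, 2.64 and 3.21 CPM in wild type and equally low in SmoFF at 1.502, 2.04, 0.12 and 3.50. Gli2FFGli3FF libraries were at 13.03, 46.5, 25.5 and 7.996, all above wild type, and Tnc rose by 2.96 ± 0.86 (adjusted p = 0.0210). The call was lost without Gli2FFGli3FF replicate 2 (adjusted p = 0.0721) and with either set of wild type controls (adjusted p = 0.0981 and 0.116). SmoM2 (36.2, 51.9 and 10.9, adjusted p = 0.139), Gli2FF (34.9 and 15.3, adjusted p = 0.063) and Gli3FF (24.2 and 14.0, adjusted p = 0.131) also lay above wild type but were not called. DESeq2, limma voom and a fit of only the groups compared did call Tnc in SmoM2 (adjusted p = 0.0107 to 0.0478). The same settings called it in Gli2FF (adjusted p = 0.0151 to 0.0428). Ctnnb1FF spread over 15.7, 7.06 and 0.25 CPM. Against SmoFF, Tnc was higher in SmoM2 by 4.197 ± 1.02 (adjusted p = 0.0270) and in Gli2FFGli3FF by 3.69 ± 0.97 (adjusted p = 0.0116). The first was lost without SmoFF replicate 1, 2 or 3 or SmoM2 replicate 1 or 2 (adjusted p = 0.0665 to 0.107). Neither was called by limma voom (adjusted p = 0.0528 and 0.0743).

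Spp1, an integrin and CD44 ligand that epithelial and immune cells also make, varied widely within most groups, with a coefficient of variation of 71.6 to 138% in 6 of the 7 Pdgfra groups and 8.55% in SmoM2. It was at 27.5, 0, 15.999, 28.97 and 0.574 CPM in wild type, at 0, 57.5, 0.04 and 35.4 in SmoFF and at 5.66, 5.23 and 4.77 in SmoM2. Counts of 0 allow up to 0.128 CPM in wild type replicate 2 and 0.1325 in SmoFF replicate 1. Ctnnb1FF libraries were at 177, 254 and 10.6 CPM (adjusted p = 0.116) and Gli2FFGli3FF libraries at 165, 117, 201 and 1.77 (adjusted p = 0.137). In each of these groups all but 1 library lay above all wild type libraries. Gli2FF was at 0.711 and 55.3, and Gli3FF at 13.9 and 2.59.

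Markers of the cells known to make Spp1 were set beside it. Cholangiocyte markers (10 genes) summed to 73.1, 11.1 and 19.3 CPM in Ctnnb1FF, to 25.8 to 64.5 in Gli2FFGli3FF and to 57.3 to 86.5 in wild type. Macrophage and other immune markers (11 genes) summed to 75.8 to 135 CPM in Ctnnb1FF and 80.9 to 104 in wild type, but to 206 to 693 in Gli2FFGli3FF. In SmoFF immune markers summed to 458, 629, 29.3 and 110 CPM and cholangiocyte markers to 149, 307, 56.8 and 193. The SmoFF library with the highest sum of each, replicate 2, also had the most Spp1 of its group, and the library with the lowest sums, replicate 3, had 0.04 CPM. Replicate 1, with 0 counts of Spp1, lay between them. The part of cholangiocytes and immune cells in the Spp1 values was not tested.

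**Figure D5:**
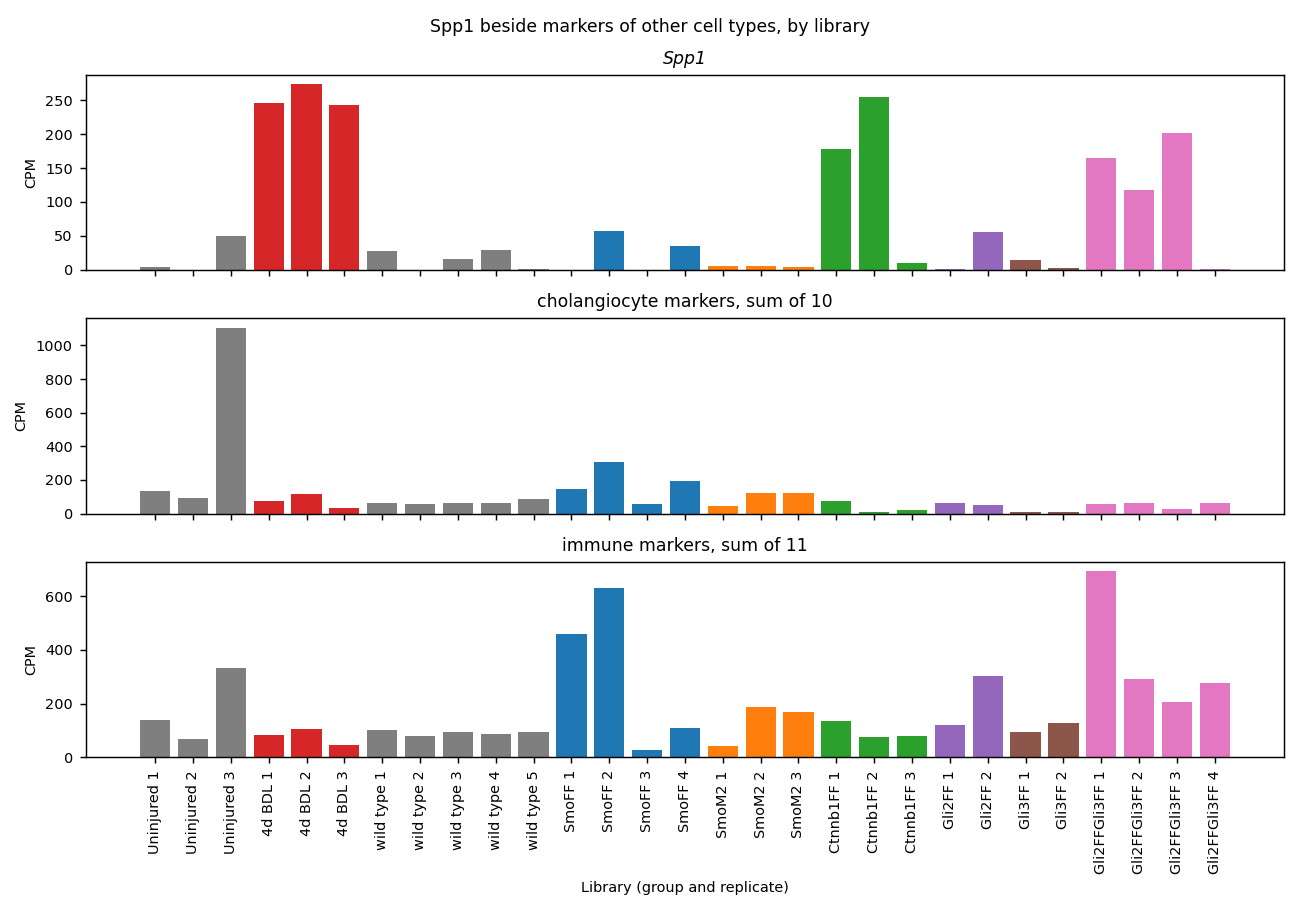
Spp1 (top) and the summed cholangiocyte and immune markers (below) in CPM, with 1 bar per library in group order, on separate scales for the Gli1 and the Pdgfra libraries. Spp1 was between 243 and 274 CPM in the 3 ligated libraries, and high in Ctnnb1FF 1 and 2 while cholangiocyte markers there summed to 73.1 and 11.1.

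The active and the loxP-flanked Smo alleles were compared directly in SmoM2 against SmoFF, where 5 of 10 genes were called beside 2.63% of all genes. Tnc, Sparc, Mgp and Fbln7 were higher and Emilin2 lower in SmoM2, with the values given above. Thbs2 lay above SmoFF (39.5, 36.7, 50.2 and 52.4 CPM) in every SmoM2 library without a call (adjusted p = 0.054). DESeq2, limma voom and a fit of only these groups did call Thbs2 (adjusted p = 0.0144 to 0.0238). The median log2 change was 0.74 over the 10 genes and 0.00 over all genes. Gli2FFGli3FF against SmoFF compares loss of both factors with loss of the transducer upstream of them, and 3 of 10 were called beside 16.5% of all genes. Tnc and Mgp were higher, and Emilin2 was lower in Gli2FFGli3FF by 1.23 ± 0.20 on the log2 scale (adjusted p = 0.000134). Fbln7, low in both, was called there only without SmoFF replicate 3 among the settings run (higher in Gli2FFGli3FF by 1.34, adjusted p = 0.0156).

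Gli3FF against Gli2FF, a comparison added after the values were seen, called 6 of 10 genes beside 4.84% of all genes. Fn1 (−2.87 ± 0.40, adjusted p = 0.000156) and Emilin2 (−2.36 ± 0.29, adjusted p = 4.33e-05) were lower in Gli3FF, as were Thbs1 (−3.06 ± 0.74, adjusted p = 0.0178) and Thbs2 (−1.43 ± 0.39, adjusted p = 0.0361). Sparc (1.62 ± 0.25, adjusted p = 0.00045) and Postn (1.91 ± 0.41, adjusted p = 0.00819) were higher in Gli3FF. No library of one group overlapped the other for these 6 genes. Fbln7, at 69.4 and 52.4 CPM in Gli3FF against 25.5 and 8.87 in Gli2FF, did not overlap either and was not called. It was called higher in Gli3FF with DESeq2 (adjusted p = 0.0161), limma voom (adjusted p = 0.00452) and no filter (adjusted p = 0.00202). The length and GC correction called it too (adjusted p = 0.0217). With 2 libraries a group the test leans on the spread of all 23 libraries. Fitted on the 4 libraries alone, it called none of the 6 (adjusted p = 0.107 to 0.166) and 0 of 19297 genes. Without Gli2FF replicate 1, or without Gli3FF replicate 1, Postn, Thbs1 and Thbs2 lost their calls (adjusted p = 0.0646 to 0.401). With the length and GC correction Thbs2 differed by −0.61 (adjusted p = 0.416) and Postn by 3.83.

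Uninjured Gli1 libraries against wild type Pdgfra libraries compare control cells marked by different Cre lines, in a fit of all 29 libraries. Sparc was lower in the Gli1 libraries by 0.89 ± 0.17 (adjusted p = 0.00215, and 0.0531 with the length and GC correction), at 2453 ± 337 CPM (n = 3) against 4543 ± 465 (n = 5). Fbln7 was lower too (−3.22 ± 0.69, adjusted p = 0.0063), at 7.56 ± 5.01 against 70.5 ± 19.5 CPM. These 2 of 10 stand beside 4.28% of 25357 genes. Mgp, at 666 ± 131 against 416 ± 91.0 CPM, had groups that did not overlap and was not called (adjusted p = 0.139). It was called with the length and GC correction (adjusted p = 0.0246) and without a filter (adjusted p = 0.0290). Cre line and deposited table coincide here and cannot be told apart, and ribosomal RNA shares differed as given above.

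Other glycoproteins of the same kind, 44 genes such as fibulins, matrilins and nephronectin, were counted beside the 10. After ligation 7 rose and 15 fell of 31 tested (median −1.17). Efemp1, an elastic fibre protein, went from 1630 ± 130 to 59.9 ± 19.6 CPM (SD, n = 3 each), and Dpt, the collagen-binding dermatopontin, from 4433 ± 1129 to 398 ± 23.1. In the mutants 36 were tested. In SmoFF 0 were higher and 2 lower, in SmoM2 0 and 0, in Ctnnb1FF 1 and 7, in Gli2FF 1 and 9, in Gli3FF 4 and 4, and in Gli2FFGli3FF 0 and 13. These counts, and those of the lists that follow, are read beside the shares of all genes called, 13.6% after ligation, 1.55% in SmoFF, 0.205% in SmoM2, 19.9% in Ctnnb1FF, 5.84% in Gli2FF, 4.45% in Gli3FF and 17.2% in Gli2FFGli3FF. In Ctnnb1FF the counts of this list and of the receptors lie near that share. The receptor counts in Gli2FF and Gli3FF also lie near the shares there. Ecm1, a secreted matrix protein, was at 507 ± 27.7 CPM in wild type (n = 5), 167 ± 44.9 in Gli2FF (n = 2) and 195 ± 36.6 in Gli2FFGli3FF (n = 4), and was called lower in both. The elastic fibre gene Fbln5 was called lower in the same groups, at 102 ± 29.2 and 105 ± 15.8 against 273 ± 57.0 CPM. Fbln2 was lower in Gli3FF at 144 ± 5.34 against 754 ± 246 CPM. In SmoM2 against SmoFF (2.63% of all genes called) 4 were higher and 0 lower, among them Tgfbi, a cell adhesion protein, at 237 ± 20.3 against 75.0 ± 25.3 CPM.

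Receptors of these proteins (19 genes) were counted in the same way. After ligation 4 rose and 2 fell of 17 tested. The fibronectin receptor subunits Itga5 (273 ± 26.6 against 71.2 ± 13.5 CPM) and Itgb1 (978 ± 84.5 against 425 ± 36.0) rose, as did the syndecan Sdc1 (241 ± 55.9 against 32.7 ± 10.4). Cd47, the thrombospondin receptor, fell from 613 ± 57.5 to 200 ± 15.01 CPM. Of 19 tested in the mutants, higher and lower counts were 0 and 1 in SmoFF, 0 and 0 in SmoM2, 0 and 3 in Ctnnb1FF, 1 and 0 in Gli2FF, 1 and 0 in Gli3FF and 3 and 2 in Gli2FFGli3FF. Lrp1, the scavenger receptor that takes up thrombospondins, was at 1769 ± 162 CPM in wild type, 530 ± 163 in Ctnnb1FF and 518 ± 136 in Gli2FFGli3FF, and was called lower in both. Cd44 was called higher in Gli2FF (163 ± 11.4 CPM) and Gli2FFGli3FF (157 ± 88.3) against 65.0 ± 12.7 in wild type.

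Among 23 enzymes and growth factors that bind, modify or are activated by these proteins, 7 rose and 2 fell after ligation. The proprotein convertase Furin was at 76.4 ± 9.11 against 21.2 ± 3.30 CPM and the procollagen protease Adamts2 at 936 ± 138 against 305 ± 60.6. Fam20c, the kinase of secreted phosphoproteins such as osteopontin, fell from 60.6 ± 11.2 to 9.46 ± 1.68 CPM. In the mutants, higher and lower counts of 23 were 0 and 1 in SmoFF, 1 and 0 in SmoM2, 1 and 8 in Ctnnb1FF, 2 and 1 in Gli2FF, 2 and 3 in Gli3FF and 2 and 9 in Gli2FFGli3FF. Tgm2, a transglutaminase that crosslinks fibronectin, was called higher in SmoM2 (432 ± 45.7 CPM) and in Gli3FF (563 ± 43.5) against 152 ± 35.9 in wild type. Bmp4, a growth factor of the kind that Mgp binds, was at 251 ± 29.5 CPM in Gli3FF against 30.1 ± 4.30. In Gli2FF, where Thbs1 was highest, the protease Adamts1 was at 441 ± 149 against 95.1 ± 8.23 CPM.

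The genes most alike to each member in log2 CPM over the 23 Pdgfra libraries, out of 8210 genes searched, are given as a description, since libraries of 1 group and the length trend are shared by all genes. Emilin2 was most like Nhsl1 (Pearson r = 0.95), Uap1 (0.92) and Ccn3 (0.92), the last itself a matricellular protein. For Mgp, Bud31 (0.93) and Ndufs5 (0.92) are given, and both also have short transcripts (928 and 680 bases). Fn1 was most like Ext1 (0.89) and Dclk1 (0.89), Sparc like Serpinf1 (0.88) and the procollagen processing enhancer Pcolce (0.83), and Fbln7 like the gelatinase Mmp2 (0.86). For Thbs1 the closest was Aff4 (0.85), for Postn Hexa (0.84), for Tnc Flna (0.80), for Spp1 Dnajc15 (0.76) and for Thbs2 Sgpl1 (0.69).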

How the data were processed

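Per the labels' protocols, microdissected common bile ducts were digested, about 1000 mesenchymal cells per animal were sorted, and full-length cDNA was made by Smart-seq3 with Smart-seq2 oligonucleotides. Whole-number read counts for each gene, not normalized, are what the authors deposited. Per the submitters' processing notes, mm10 was the genome build. Aligner, counter, annotation and strand setting are not given in sources used here. Reads of overlapping genes may therefore be shared. There are no molecular identifiers, so limits for counts of 0 (3 counts) cover counting error only.

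Sample titles gave the groups and replicate numbers, and 0 columns were left unused. The quasi-likelihood test of edgeR 4.0.16 (R 4.3.3) was run on the counts after filterByExpr and TMM scaling, with Benjamini-Hochberg adjustment and a threshold of 0.05. The 6 Gli1 libraries, the 23 Pdgfra libraries and, for uninjured against wild type, all 29 libraries were fitted separately. The tests were tried on simulated data. No pair of libraries held identical counts.

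The 10 members and the other lists were chosen with earlier results of these data known. Text names all members, up to 4 called genes with the smallest p per other list and comparison, and the 3 genes most like each member (mean log2 CPM of at least 3), and may leave some out. Other settings were RLE scaling, DESeq2 1.42.0, limma 3.58.1 voom, no filter, the replicate number as a block, leaving out the ribosomal RNA locus, only the groups compared, wild type 1 to 3 or 4 and 5 as controls (sets that an earlier analysis of these files found to differ) and leaving out each library. An offset removing trends with transcript length and GC content, and the comparison of Gli3FF with Gli2FF, were added after seeing the data. Promoter windows are from RefSeq (GRCm38.p6).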

Additional observations from a re-analysis of the deposited data

How the results depend on the processing

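Of 1036 alternative values for 64 pairs of a member and a comparison, 883 kept their direction and their side of the threshold, 94 lost the call, 50 gained one and 9 changed sign. The sign changes were Fn1 after ligation, whose change of 0.02 became −0.0083 with RLE scaling and with DESeq2, −0.10 with the GC and length correction and −0.16 to 0.35 on leaving out a library, and Sparc with that correction in Ctnnb1FF (0.031) and Gli2FFGli3FF (0.29). Sparc and Emilin2 after ligation, Fbln7 in SmoFF, Mgp and Fbln7 in Ctnnb1FF, Fn1 and Emilin2 in Gli3FF, and Mgp, Fbln7 and Emilin2 in Gli2FFGli3FF kept their calls in every alternative run. The number of members called after ligation (4) was 7 with voom and 2 to 5 on leaving out a library. In SmoFF (2) it was 4 without a filter, 1 with wild type 4 and 5 as controls, 1 with the GC and length correction and 1 to 2 on leaving out a library. In SmoM2 (1) it was 2 with DESeq2, 5 with voom, 4 without a filter, 4 with only the groups compared, 0 with either set of wild type controls and 0 to 1 on leaving out a library. In Ctnnb1FF (5) it was 9 without a filter, 3 with wild type 4 and 5, 3 with the GC and length correction and 3 to 6 on leaving out a library. In Gli2FF (4) it was 7 without a filter, 1 with wild type 4 and 5 and 2 to 4 on leaving out a library, and in Gli2FFGli3FF (6) it was 3 with wild type 4 and 5. In SmoM2 against SmoFF (5) it was 3 with the GC and length correction and 2 to 4 on leaving out a library, and in Gli2FFGli3FF against SmoFF (3) it was 6 without a filter. In Gli3FF against Gli2FF (6) it was 0 with only the groups compared and 3 to 5 on leaving out a library, and in uninjured Gli1 against wild type (2) it was 4 without a filter. The causes were not tested. Groups of 2 or 3 libraries leave few samples when 1 is left out, and an arm then holding 1 library is assumed to vary like the others. Over these settings the genes called of all tested were 377 to 3542 after ligation, 19 to 1122 in SmoFF, 17 to 1456 in SmoM2, 3050 to 6690 in Ctnnb1FF, 179 to 5732 in Gli2FF, 319 to 2389 in Gli3FF and 2213 to 5871 in Gli2FFGli3FF.

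With the replicate number as a block, members called were 2 after ligation, 0 in SmoM2 and 3 in SmoM2 against SmoFF, and the calls of Sparc in Gli2FF (adjusted p = 0.0531) and Gli3FF (adjusted p = 0.0539) and of Thbs2 in Gli3FF against Gli2FF (adjusted p = 0.0595) were also lost. The block changed no other call of a member from called to not called. The Fn1 change after ligation was −0.062. Same-numbered deviations from group means correlated at −0.26 to 0.17 over genes. Deviations from the mean of a small group are tied to each other, so these values cannot decide whether the numbers pair the libraries.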
